A study of Homo sapiens and Mus musculus with 13 samples.

Results

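Lines of the MDA-MB-231 breast cancer cell line that carried a guide RNA against KDM5C were compared with lines that did not, by RNA-Seq. Of the 13 samples of the series, 7 were such lines, 1 library each. The 4 lines with a KDM5C guide were KDM5C-KD1, KDM5C-KD2 and the double knockdown lines DKD1 and DKD2. The 3 lines without one were Control, with a guide against GFP, and TRIM11-KD1 and TRIM11-KD2. KDM5C guide 1 was used only in KDM5C-KD1, and guide 2 was used in KDM5C-KD2, DKD1 and DKD2. TRIM11 guide 1 was carried by TRIM11-KD1 and DKD1, and TRIM11 guide 2 by TRIM11-KD2 and DKD2, so that both groups hold lines with and without a TRIM11 guide. All 7 lines received Cas9 with their guide from a lentivirus and were selected with puromycin. The study checked the knockdown by western blotting, and whether a line is a clone is not given in the sources used here. The labels do not say that the lines of a group came from separate cultures, and p-values therefore measure only the spread between these libraries.

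KDM5C is a histone demethylase that removes methyl groups from lysine 4 of histone H3. Trimethylation of this lysine marks active promoters and, at a lower level, some enhancers, and KDM5C is known to hold down signal at enhancers and at genes that a tissue does not use. TRIM11 is a ubiquitin E3 ligase. MDA-MB-231 cells are triple-negative and have a mesenchymal form, with vimentin and few epithelial junction genes. The question of the comparison is which genes differ with the KDM5C guide whether or not a TRIM11 guide is present.

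Expression was given as FPKM, fragments scaled by transcript length and by the mapped fragments of the library. Each library summed to between 493566 and 513482 FPKM. Read totals are not known, but genes with low FPKM lay at steps of 1 read, and these steps gave a relative depth, against Control, of 1.12 in TRIM11-KD1, 0.869 in TRIM11-KD2, 0.976 in KDM5C-KD1, 0.732 in KDM5C-KD2, 0.863 in DKD1 and 1.01 in DKD2. KDM5C-KD2 was the shallowest library and stood apart from the other 6 on the first principal component (score of 45, against -16.7 to 6.5 in the others), which held 32.6% of the variance. All 7 markers of the cell line were tested, and 2 (28.6%, against 5.81% of all genes tested), VIM and ANXA1, were higher in all 4 lines. Among the 7, 4 had a positive and 3 a negative log2 difference. Of 8 receptor and epithelial genes that these cells lack or hold low, 4 were tested. EPCAM and ERBB2 (50% of the 4, against 5.81%) were higher in all 4 lines. Both lists are short, and these shares are descriptions. VIM was between 1038 and 1309 FPKM in the 7 lines, ESR1 did not pass 0.0234, PGR was listed at 0, and of 13 markers of other cells only CD14 and CD68 had a mean of at least 1 FPKM. A gene was tested when its mean over the 7 lines was at least 1 FPKM, which 11775 genes reached. HIST1H3B, at a mean of 1.0008, was just inside this limit.

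KDM5C mRNA was lower in every line with a KDM5C guide. Control had 30.3 FPKM, TRIM11-KD1 had 29.8 and TRIM11-KD2 had 28.4. In the lines with the guide it was 20.6 in KDM5C-KD1, 21.4 in KDM5C-KD2, 18.8 in DKD1 and 22.7 in DKD2. The groups did not overlap, and the ratio of their means was 0.708 (20.9 ± 1.62, SD, n = 4 lines, against 29.5 ± 0.995, SD, n = 3). The gene (chromosome X from 53205465 to 53254604 in hg19, minus strand) kept about the same level with guide 1 and with guide 2. The mRNA is not a measure of the protein, since a guide acts on DNA. In a pool of cells, fewer cells with the mRNA and less mRNA per cell cannot be told apart. TRIM11 mRNA did not follow its guides. It was 12.6 FPKM in Control and 13.4 in the library labelled TRIM11-KD1, 10.6 in the library labelled TRIM11-KD2, 13.6 in KDM5C-KD1, 14.2 in KDM5C-KD2, 16.1 in the library labelled DKD1 and 9.38 in the library labelled DKD2. The libraries labelled with TRIM11 guide 1 were thus above Control, and those labelled with guide 2 below it.

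**Figure D1:**
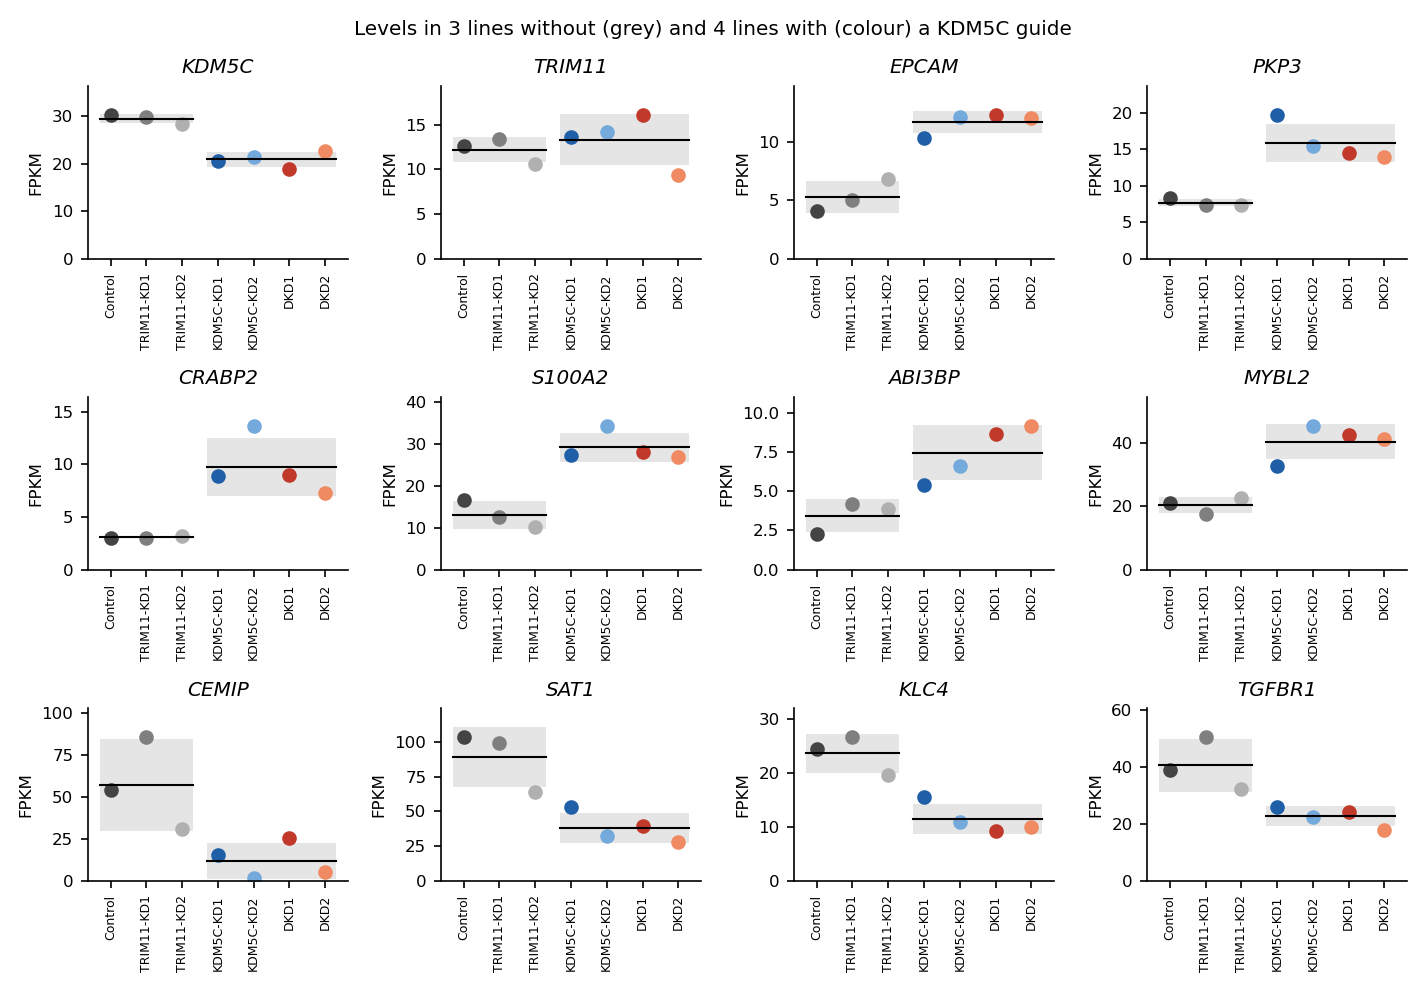
FPKM (y axis, from 0) of 12 genes in each of the 7 lines (x axis). Grey points are the 3 lines without a KDM5C guide and coloured points the 4 lines with one, and the line and shaded band are the mean and SD of each group. In every panel but that of TRIM11 the 4 lines with the guide lie all above or all below the 3 lines without it.

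Genes were counted first by whether the groups overlapped, with no test. In 684 genes (5.81% of 11775) the lowest of the 4 lines with the guide was above the highest of the 3 lines without it, and in 607 genes (5.15%) the highest was below the lowest. Where the group means also differed at least 1.5 times, these counts were 155 (1.32%) and 109 (0.926%). At the edge of this rule, TMEM104 just separated, with its highest value with the guide (DKD1) and its lowest without (TRIM11-KD2) both at 10.4 FPKM after rounding, and SRSF6 just failed to, with 62.3 FPKM in TRIM11-KD2 and in KDM5C-KD1. The test was limma on log2(FPKM + 1) with the presence of a TRIM11 guide as covariate, a scale that understates the change of low genes. No gene had an adjusted p under 0.05 over all genes tested (0%). The smallest adjusted p, 0.0569, was that of a row of small RNAs near the limit of the filter. Without adjustment 719 genes were higher (6.11%) and 612 lower (5.2%) at a limma p under 0.05. The study's rule for DEGs, a ratio of 1.5 with an unadjusted p under 0.05, called 207 genes higher (1.76%) and 169 lower (1.44%). An exact permutation test of 4 lines against 3 cannot give a two-sided p below 0.0571 for a single gene. Without KDM5C-KD2, 942 genes were higher and 884 lower without overlap, counts that grow when a line is left out because fewer values have to separate.

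The guide can be read separately in lines with and without a TRIM11 guide, since these comparisons share no library. Across all genes tested, the difference of KDM5C-KD from Control and that of DKD from TRIM11-KD had a Pearson's r of 0.187 and a Spearman's rho of 0.218. These describe agreement across genes, which are not independent replicates. The difference had the same sign in 56.9% of genes. The median of the absolute difference was 0.191 on the log2 scale without a TRIM11 guide and 0.155 with one.

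**Figure D2:**
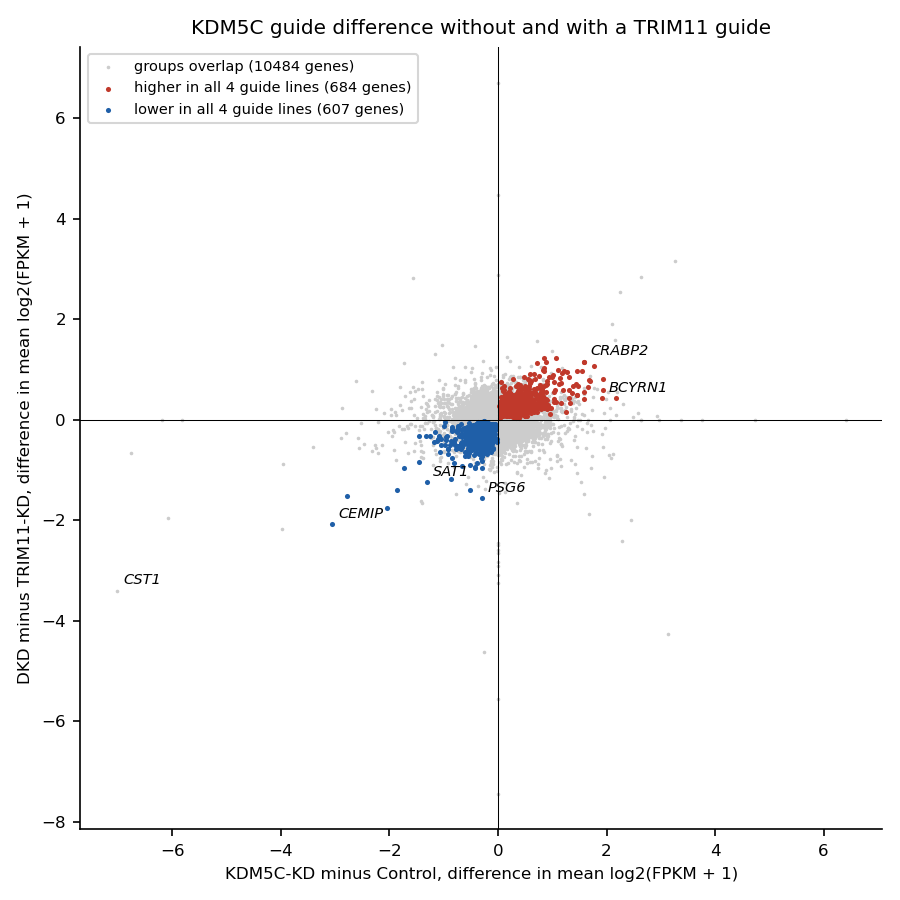
Difference in mean log2(FPKM + 1) of the 2 KDM5C-KD lines from the 1 Control (x axis) against that of the 2 DKD lines from the 2 TRIM11-KD lines (y axis), 1 point a gene. Red and blue points are the 684 and 607 genes without overlap, which the rule places in the upper right and the lower left. Most genes lie in a round cloud at 0 (r = 0.187), and CST1 and CEMIP lie far to the lower left.

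EPCAM and LSR were among the 12 named genes with the largest positive differences and no overlap, and PKP3 was among the 6 genes with the smallest p. EPCAM, an adhesion molecule of epithelial cells (chromosome 2 from 47572297 to 47614740), was 4.03 FPKM in Control, 4.999 in TRIM11-KD1, 6.77 in TRIM11-KD2, 10.3 in KDM5C-KD1, 12.2 in KDM5C-KD2, 12.3 in DKD1 and 12.02 in DKD2. Its log2 difference was 1.08 (SE 0.14), at a limma adjusted p of 0.191. PKP3, a plakophilin of desmosomes (chromosome 11 from 392614 to 404908), was 8.27, 7.40 and 7.35 FPKM in Control, TRIM11-KD1 and TRIM11-KD2. With the guide it was 19.7 in KDM5C-KD1, 15.4 in KDM5C-KD2, 14.5 in DKD1 and 13.9 in DKD2, a log2 difference of 0.91 (SE 0.11). KDM5C-KD1, the line with guide 1, was the lowest of the 4 lines in EPCAM and the highest in PKP3. LSR, a receptor of tricellular tight junctions, was 7.84, 10.7 and 20.3 FPKM in the lines without the guide and between 20.8 and 36.2 in those with it, so that TRIM11-KD2 came close to the lowest line with the guide.

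Other genes with large positive differences have different roles. CRABP2, a carrier of retinoic acid, had the largest among the named genes without overlap, a log2 difference of 1.33 (SE 0.18). Control had 2.99 FPKM, TRIM11-KD1 3.03 and TRIM11-KD2 3.15, against 8.88 in KDM5C-KD1, 13.7 in KDM5C-KD2, 8.99 in DKD1 and 7.31 in DKD2. Its 3 lines without the guide were almost equal. S100A2, a calcium-binding protein, was 16.7, 12.5 and 10.1 FPKM in the lines without the guide and 27.4, 34.4, 28.2 and 27.0 in those with it, both in the order given for CRABP2. ABI3BP, an extracellular matrix protein, had the smallest p of any protein-coding gene, at a limma adjusted p of 0.185. It was 2.25, 4.18 and 3.90 FPKM without the guide and 5.38, 6.63, 8.70 and 9.19 with it in the same order of lines, and the log2 difference was 1.03 (SE 0.11). The ratio of means was 2.71 for NINJ2, a cell surface protein, 2.31 for MEST, an imprinted gene, 2.13 for C1orf110, 2.12 for TPGS1, a subunit of the enzyme that adds glutamate chains to tubulin, and 2.05 for MMP24, a membrane metalloproteinase.

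For BCYRN1 and MT1E one library set the size of the ratio. BCYRN1, a short noncoding RNA whose sequence has many copies in the genome, was 253.6, 266.0 and 297.5 FPKM without the guide and 560.2, 1652, 319.9 and 447.6 with it, and the 1652 was KDM5C-KD2. Reads of its copies could be shared, and its value is uncertain. It lies 9643 bases from the start of EPCAM, on the same strand. MT1E, a metallothionein that binds zinc and copper, was 22.9, 13.5 and 25.8 FPKM without the guide and 45.6, 92.0, 37.4 and 37.9 with it. The highest was again KDM5C-KD2, and metallothionein genes are near-copies of each other.

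The level of some genes was lower in all 4 lines. CEMIP, a hyaluronan-binding protein, had the most negative log2 difference of the named genes without overlap, -2.47 (SE 0.77), and also a wide spread. Control had 54.2 FPKM, TRIM11-KD1 85.7 and TRIM11-KD2 31.0, against 15.5 in KDM5C-KD1, 1.68 in KDM5C-KD2, 25.2 in DKD1 and 4.90 in DKD2. SAT1, the enzyme that acetylates spermidine and spermine (chromosome X from 23801290 to 23804327), was 103.7, 99.5 and 63.9 FPKM without the guide and 53.02, 31.9, 39.2 and 27.7 with it. The difference was about the same without and with a TRIM11 guide, -1.31 and -1.25 on the log2 scale. TGFBR1, a receptor of TGF-beta, was 38.9, 50.6 and 32.1 FPKM without the guide and 26.1, 22.3, 24.3 and 18.0 with it, a ratio of means of 0.559. LPXN, a focal adhesion protein, had a ratio of 0.525, LPHN2, an adhesion receptor, 0.523, and CFB, complement factor B, 0.549. In LPHN2 the lowest line without the guide, TRIM11-KD2 at 4.78 FPKM, was close to the highest with it, DKD2 at 4.66. PSG6, at a ratio of 0.495, belongs to a family of near-identical pregnancy-specific glycoproteins, and its reads could be divided among them.

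KLC4, a kinesin light chain, and MRPL2, a protein of the mitochondrial ribosome, lie on opposite strands of chromosome 6. In the GENCODE annotation used here for positions they overlap by 5410 bases. The libraries kept no strand, so reads in an overlap could not be told apart. The gene models behind the FPKM are not given in the sources used here, and whether the 2 values share reads was not tested. KLC4 was 24.5, 26.7 and 19.7 FPKM without the guide and 15.5, 10.9, 9.28 and 9.90 with it, a log2 difference of -1.05 (SE 0.16). MRPL2 was 85.7, 75.9 and 75.2 FPKM without and 61.6, 54.5, 46.7 and 43.5 with it, a difference of -0.66 (SE 0.09). UBR2, a ubiquitin ligase encoded on the same arm, had a ratio of 0.596.

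The row with the smallest p was a pair of small RNAs, MIR6516 and SCARNA16. It was listed at 3.11, 2.48 and 2.33 FPKM in Control, TRIM11-KD1 and TRIM11-KD2 and at 0 in all 4 lines with the guide, and had the limma adjusted p of 0.0569 given above. Its mean over all lines was 1.13 FPKM. It thus passed the limit of 1 FPKM only through the lines without the guide, and its p carries little weight. No fold is given against a group at 0. Small RNAs without a poly(A) tail are poorly captured by poly(A) selection, and SNORA61 and SNORA8 were likewise listed at 0 in 6 of the 7 lines.

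The promoters of the 2 higher and the 2 lower protein-coding genes with the smallest p are printed, because KDM5C acts on a mark of promoters and the 4 differ in their CG content. Each is the 250 bases before the 5′ end of the gene record in hg19, read 5′ to 3′ on the strand of the gene, with CG dinucleotides in capitals.
ABI3BP, higher in the 4 lines, chr3:100712360-100712609, - strand: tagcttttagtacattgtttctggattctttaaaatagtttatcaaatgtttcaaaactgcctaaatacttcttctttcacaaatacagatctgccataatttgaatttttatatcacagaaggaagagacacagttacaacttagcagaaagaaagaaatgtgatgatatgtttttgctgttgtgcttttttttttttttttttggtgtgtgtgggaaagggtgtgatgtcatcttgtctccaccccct
PKP3, higher in the 4 lines, chr11:392364-392613, + strand: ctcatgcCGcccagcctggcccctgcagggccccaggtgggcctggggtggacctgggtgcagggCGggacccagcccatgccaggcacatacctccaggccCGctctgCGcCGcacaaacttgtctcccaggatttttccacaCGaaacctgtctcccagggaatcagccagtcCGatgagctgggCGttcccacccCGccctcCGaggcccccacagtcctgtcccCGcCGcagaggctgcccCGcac
MRPL2, lower in the 4 lines, chr6:43027177-43027426, - strand: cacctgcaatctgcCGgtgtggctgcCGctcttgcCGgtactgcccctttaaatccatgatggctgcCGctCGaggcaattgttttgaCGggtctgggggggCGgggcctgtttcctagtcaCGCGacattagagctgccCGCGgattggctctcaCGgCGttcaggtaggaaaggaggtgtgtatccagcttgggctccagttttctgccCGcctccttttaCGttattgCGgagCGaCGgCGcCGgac
HDAC6, lower in the 4 lines, chrX:48659534-48659783, + strand: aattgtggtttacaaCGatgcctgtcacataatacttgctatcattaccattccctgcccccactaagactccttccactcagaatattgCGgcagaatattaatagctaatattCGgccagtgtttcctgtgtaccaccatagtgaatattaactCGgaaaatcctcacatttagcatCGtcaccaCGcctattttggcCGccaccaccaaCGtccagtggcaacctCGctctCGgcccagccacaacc

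ABI3BP had no CG in these 250 bases, PKP3 had 13, MRPL2 had 20 and HDAC6, a cytoplasmic deacetylase, had 10. Over a window that also takes the next 50 bases, a promoter was found for 94.3% of the 684 higher genes, 95.6% of the 607 lower genes and 94.4% of all genes tested. The median number of CG was 24 in the higher genes, 21 in the lower genes and 23 in all genes tested. Fewer than 10 CG were found in 15.7% of the higher, 20.5% of the lower and 18.4% of all. The letters CACGTG, an E-box that reads the same on both strands, occurred in 12.1% of the higher, 8.45% of the lower and 9.64% of all windows. GCGGGAA, an E2F motif searched on both strands, occurred in 9.77%, 6.38% and 9.54%. These shares are descriptions, and none was tested.

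A list of epithelial junction and keratin genes, put together after values such as those of EPCAM and PKP3 had been seen, showed how far the pattern went. Of its 52 genes 36 were tested. In 7 of them (19.4%, against 11% of all genes without overlap in either direction) all 4 lines with the guide were above the 3 others, and in none were they below. The 7 were EPCAM, PKP3, LSR and CLDN1 of tight junctions, MARVELD1, a MARVEL domain protein, PPL of the desmosomal plaque, and the keratin KRT18. CLDN1 was 3.22, 4.83 and 3.98 FPKM without the guide and 8.83, 6.52, 7.21 and 6.56 with it. KRT18 was 296, 321 and 342 FPKM without it and 390, 440, 407 and 435 with it. The other members did not separate. CDH1, E-cadherin, stayed low, between 0.615 and 1.98 FPKM in all 7 lines. KRT8 was 374.6, 393.4 and 457.6 FPKM without the guide and 405.9, 480.3, 446.3 and 621.8 with it, and these overlap. The median log2 difference of the list was 0.17, against 0.00 over all genes tested. Its members helped to choose it, and the count is a description. VIM was also higher in all 4 lines, at 1224 ± 81.4 FPKM (SD, n = 4) against 1074 ± 47.3 (SD, n = 3).

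Proliferation genes had positive differences throughout. Of the 30 genes 29 were tested, and all 29 had a positive log2 difference, with a median of 0.31. In 4 of them (13.8%, against 5.81% of all genes) the lines with the guide were higher without overlap, and none had an adjusted p under 0.05. MYBL2, a cell cycle transcription factor, was 21.1 FPKM in Control, 17.5 in TRIM11-KD1, 22.6 in TRIM11-KD2, 32.6 in KDM5C-KD1, 45.5 in KDM5C-KD2, 42.5 in DKD1 and 41.3 in DKD2. Its log2 difference was 0.96 (SE 0.15), at a limma adjusted p of 0.252. The others were the mitotic kinase PLK1 (ratio of means 1.26), cyclin E2, CCNE2 (1.52), and cyclin A2, CCNA2 (1.11). The medians of the list in single lines, against the mean of the 3 lines without the guide, were 0.03 in KDM5C-KD1, 0.45 in KDM5C-KD2, 0.23 in DKD1 and 0.60 in DKD2. TRIM11-KD2, without a KDM5C guide, was at 0.25 and TRIM11-KD1 at -0.22. The 2 groups therefore overlapped as whole lists. PCNA and MCM7, which act in DNA replication, overlapped too, and TRIM11-KD2 at 124.6 and 127.4 FPKM was above KDM5C-KD1 at 109.0 and 102.5.

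Genes of the immune response had mostly negative differences but few without overlap. Of 20 tested NF-kappaB pathway genes and targets, 14 had a negative log2 difference, and 3 (15%) were lower without overlap, against 5.15% of all genes. The median of the list differed widely among lines, from -0.79 in KDM5C-KD2 to 0.25 in DKD1, which was the highest of all 7 lines. SOD2, mitochondrial superoxide dismutase, was 137.9, 275.9 and 155.0 FPKM without the guide and 113.4, 112.5, 113.0 and 98.5 with it. NFKBIE, an NF-kappaB inhibitor, had a ratio of means of 0.714 and REL, an NF-kappaB subunit, one of 0.694. RELA, the main subunit, had a log2 difference of 0.03. Of 42 tested interferon response genes 29 were negative, with a median of -0.17, and 3 were lower without overlap (7.14%, near the 5.15% of all genes). These were the RNA sensor DDX58, with a ratio of 0.636, the ISG15 ligase HERC5, 0.697, and PARP14, 0.713. ISG15 itself was 195.9, 197.5 and 179.5 FPKM without the guide and 138.0, 201.2, 92.0 and 245.1 with it, which overlap widely. Without DKD1 the median of the interferon list was 0.03, so its sign rested on that library.

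Of 21 tested inflammatory cytokines and chemokines none separated the groups (0%, against 11% of all genes in either direction), although 16 had a negative difference. IL6 came nearest. It was 113.2, 185.3 and 149.7 FPKM without the guide and 72.5, 39.3, 116.2 and 83.1 with it, and DKD1 was just above Control. DKD1 was also the highest of the 7 lines in the chemokines, which attract neutrophils. CXCL8 was 32.8, 54.4 and 42.0 FPKM without the guide and 18.0, 2.65, 110.1 and 14.4 with it. CXCL1 was 37.5 in DKD1 and between 0.0749 and 7.51 in the other lines. CXCL2 was 91.8 in DKD1 and at most 35.4 elsewhere, CXCL3 was 7.38 and at most 3.82, and IL1A was 5.603 and at most 2.14. The 3 other lines with the guide were below the 3 without it in CXCL8, CXCL1, CXCL2, CXCL3 and IL1A. DKD2, the other double knockdown line, did not share the high levels of DKD1.

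Of 23 tested antigen presentation genes 2 were lower without overlap (8.7%, near the 5.15% of all genes). HLA-E was 74.4, 75.8 and 74.8 FPKM without the guide and 63.1, 56.1, 54.5 and 61.7 with it, and TAP1, a subunit of the peptide transporter, was 53.7, 60.7 and 53.4 without and 42.4, 32.8, 38.1 and 46.2 with it. Both lie on the short arm of chromosome 6, where other genes were lower too. The median log2 difference was -0.15 for the 13 members on chromosome 6 and -0.08 for the 10 members elsewhere, of which none separated. B2M, on chromosome 15, was 773.0, 957.8 and 764.5 FPKM without the guide and 808.9, 655.5, 911.9 and 772.7 with it.

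Replication-dependent histone genes had mostly negative differences. Of 14 tested 4 were lower without overlap (28.6%, against 5.15% of all genes) and 11 were negative, with a median log2 difference of -0.35. HIST1H2BC was 8.92, 16.0 and 13.1 FPKM without the guide and 6.74, 5.16, 3.47 and 6.65 with it, a log2 difference of -1.05 (SE 0.26). HIST1H1C, a linker histone, was 59.8, 92.3 and 62.5 without and 51.1, 38.4, 32.2 and 47.6 with it. HIST1H2BJ (ratio of means 0.587) and HIST2H2BE (0.62) were the others. HIST2H2BE is on chromosome 1, and HIST1H1C and HIST1H2BJ are on the short arm of chromosome 6. They lie between 20 and 50 Mb, where 22.3% of all tested genes were lower without overlap. HIST1H2BC had no position here. Whether the histone genes differed beyond the other genes of this stretch was not tested. Most such mRNAs have no poly(A) tail, and the libraries were made with poly(A) selection. DKD1 was the lowest line in HIST1H1C, HIST1H2BC and HIST2H2BE, and not in HIST1H2BJ, where KDM5C-KD2 was.

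The other enzymes of lysine 4 did not move as a group. Of the other KDM5 genes, KDM5A was 3.86, 4.26 and 4.40 FPKM without the guide and 3.78, 4.11, 4.32 and 3.76 with it, and KDM5B was 12.1, 14.7 and 13.5 without and 11.4, 8.47, 12.3 and 12.3 with it. Of 18 tested genes of the H3K4 methylation machinery, 2 separated (11.1%, near the 11% of all genes in either direction). PAXIP1, a partner of the KMT2C and KMT2D complexes, was higher without overlap, with a ratio of means of 1.29. KMT2B, a methyltransferase, was lower by a small step, 11.02 ± 0.429 FPKM (SD, n = 4) against 11.9 ± 0.455 (SD, n = 3). The demethylase KDM1A and the complex subunit WDR5 overlapped.

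Of 44 tested positive regulators of cell migration, PDGFC (ratio 1.24) and RAC1 (1.05) were higher and TGFBR1 lower without overlap (6.82%, below the 11% of all genes in either direction), and the median log2 difference was -0.02. MCAM, an adhesion molecule that the study follows, was 28.1 FPKM in Control, 24.2 in TRIM11-KD1, 20.4 in TRIM11-KD2, 39.3 in KDM5C-KD1, 76.6 in KDM5C-KD2, 32.2 in DKD1 and 18.6 in DKD2. The study reports that MCAM mRNA rose with KDM5C knockdown and was rescued in double knockdown cells, and it also assayed an MCAM enhancer. Pooling the KDM5C-KD and DKD lines does not test that report. Here DKD2 was the lowest of all 7 lines, so the groups overlapped, and the limma adjusted p was 0.604. The difference was 0.94 on the log2 scale without a TRIM11 guide and 0.13 with one. Their gap, fitted as an interaction, was -0.81 (SE 0.58). The 0.94 rests on 1 Control library and on KDM5C-KD lines that lay far apart.

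Several lists were carried by 1 or 2 lines. Of 9 tested germline and cancer-testis genes, which KDM5C is known to repress in other cells, none separated the groups. Their median was 2.76 in KDM5C-KD2 and between -0.31 and 0.28 in the 3 other lines with the guide. SSX1 was 36.6 FPKM in KDM5C-KD2 and at most 8.94 elsewhere. MAGEC2 was 22.8 FPKM in KDM5C-KD2 and 52.4 in DKD2, but also 22.6 in TRIM11-KD2. Of 30 neuronal genes, another class that KDM5C is known to repress, 8 were tested and none separated. Of 7 tested cystatins, inhibitors of cysteine proteases, none separated either. Over all genes tested 11% separated in either direction, so no separation in lists of 7 to 9 genes says little about them. CST1 was 1380, 574.7 and 37.01 FPKM in the lines without the guide, against 58.5, 0.907, 77.7 and 1.49 with the guide, so TRIM11-KD2 fell among the lines with it. Metallothioneins had MT1E higher, 1 of 5 tested (20%, against 5.81% of all genes higher), while MT1X and MT2A overlapped. In the remaining lists 1 gene each separated. These were ATF4 of 16 tested ATF4 stress response genes (6.25%, ratio 1.15) and TPI1 of 24 glycolysis and hypoxia genes (4.17%, ratio 1.25). The last was COL18A1 of 24 collagens and matrix genes (4.17%, ratio 0.716). These shares are below the 11% of all genes in either direction. No gene of cholesterol and fatty acid synthesis (24 tested) or of the aldo-keto reductases and NRF2 targets (16 tested) separated. No mitochondrial transcript was among the genes tested.

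**Figure D3:**
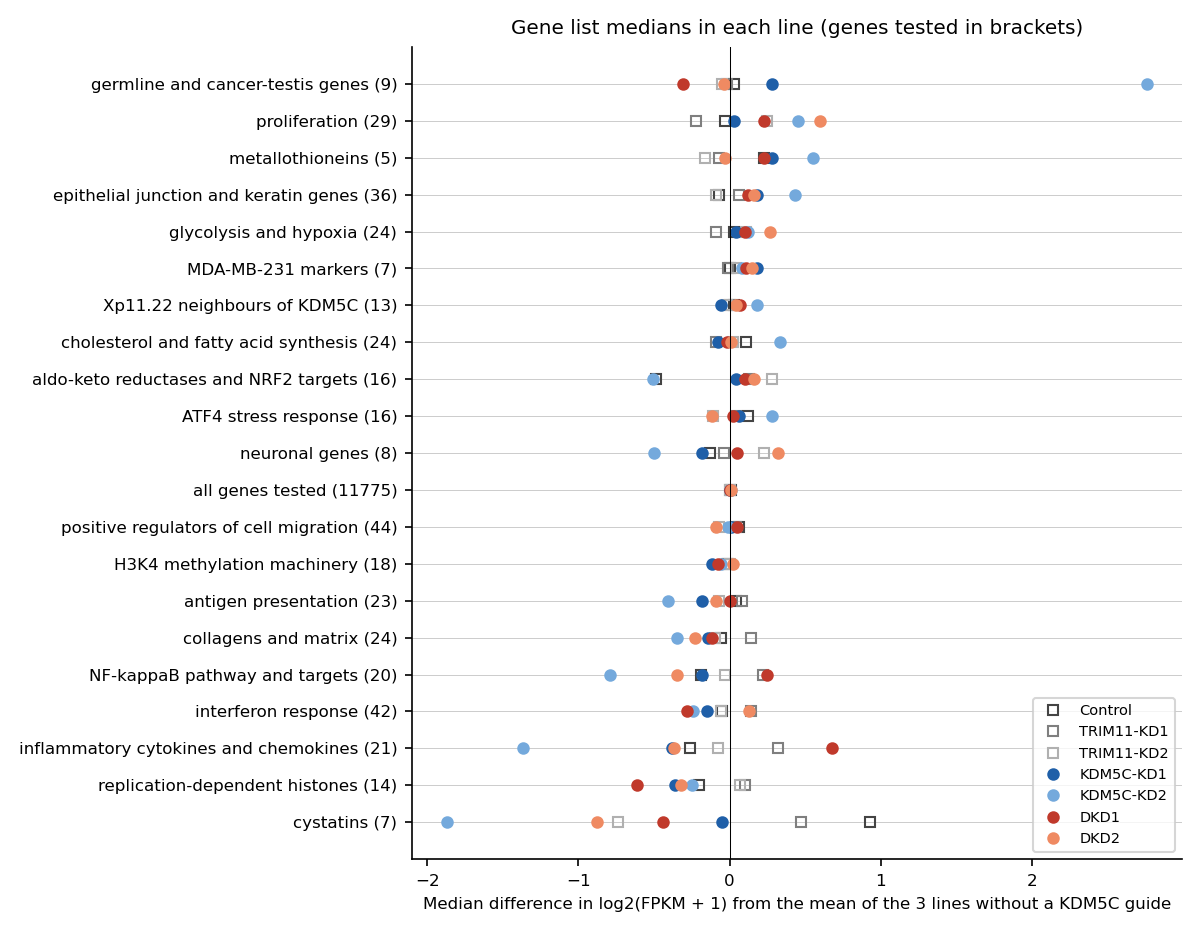
Median difference in log2(FPKM + 1) from the mean of the 3 lines without a KDM5C guide (x axis) for each gene list with at least 5 tested genes (y axis, number tested in brackets), 1 point a line. Filled points are the 4 lines with the guide and open squares the 3 lines without, and the rows are ordered by the fitted median. KDM5C-KD2 stands far from the other lines in germline genes (2.76), cystatins (-1.87) and cytokines (-1.37).

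The genes without overlap were not spread evenly over chromosomes. Of 11121 tested genes with a position, 5.8% were higher and 5.22% lower without overlap. On chromosome 6, 12.4% of 565 genes were lower and 1.59% higher. On chromosome 16, 12.6% of 506 genes were higher and 0.988% lower, and on chromosome 22 10.2% of 266 were higher. The lines differed in size on chromosome 16. From 80 to 90 Mb the median log2 difference from the lines without the guide was 0.42 in KDM5C-KD2. It was 0.07 in KDM5C-KD1, 0.06 in DKD1 and 0.08 in DKD2. From 0 to 10 Mb it was 0.29 in KDM5C-KD2, 0.17 in KDM5C-KD1 and 0.0 in DKD1 and DKD2. The X chromosome had 9.37% lower and 6.61% higher of 363. Regions were picked out after these values had been seen, and the values that follow are descriptions.

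**Figure D4:**
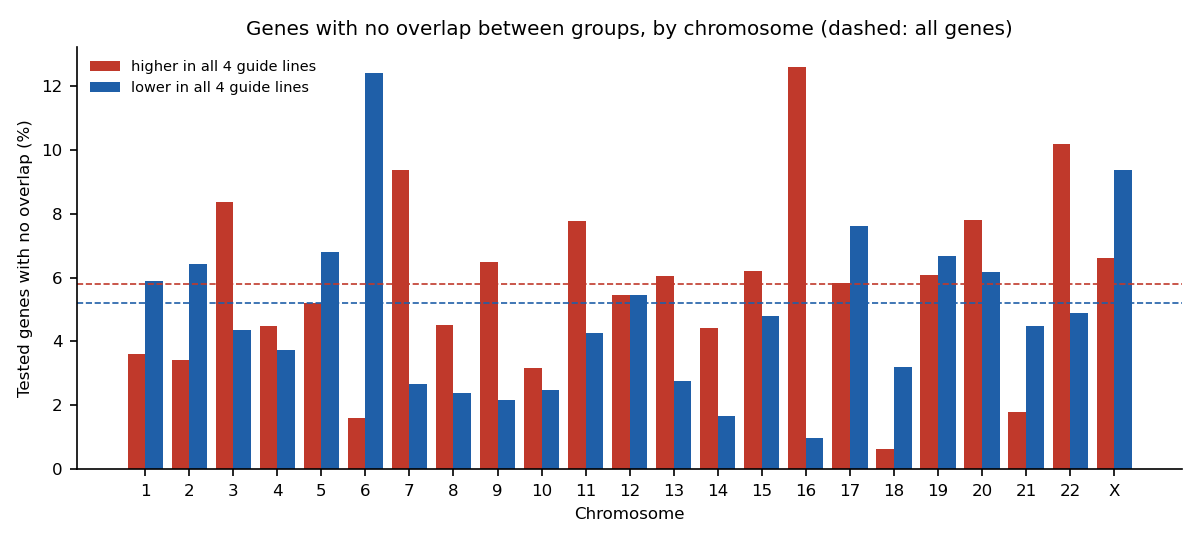
Percentage of tested genes (y axis) on each chromosome (x axis) that were higher (red bars) or lower (blue bars) in all 4 lines with a KDM5C guide than in all 3 lines without. Dashed lines are the percentages over all genes with a position, 5.8% and 5.22%. Lower genes stand out on chromosome 6 (12.4%) and X (9.37%), and higher genes on chromosome 16 (12.6%).

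On the X chromosome lower genes were found on both sides of KDM5C, with a larger share towards the end of the short arm. Towards the end of the short arm, 130 genes were tested, of which 20 (15.4%) were lower and 2 higher without overlap and 109 (83.8%) had a negative log2 difference. Their median was -0.22. On the other side, towards the centromere and along the long arm, 232 genes were tested, of which 13 (5.6%) were lower and 22 higher, and the median was 0.03. In single lines, against the mean of the 3 lines without the guide, the median of the short arm side was -0.24 in KDM5C-KD1, 0.01 in KDM5C-KD2, -0.37 in DKD1 and -0.19 in DKD2. In Control, TRIM11-KD1 and TRIM11-KD2 it was -0.01, 0.00 and -0.01. The other side was at 0.01, 0.12, -0.01 and 0.03 in the 4 lines with the guide. The lines DKD1, KDM5C-KD1 and DKD2 were thus low on one side only, and KDM5C-KD2 was not low on either. The median of the one side minus that of the other was -0.25 in KDM5C-KD1, -0.11 in KDM5C-KD2, -0.36 in DKD1 and -0.22 in DKD2, and between -0.04 and 0.01 in the 3 lines without the guide. KDM5C-KD2 shared its guide with DKD1 and DKD2.

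Since the genes were divided at KDM5C beforehand, these medians do not locate a step. Within 10 Mb on the short arm side the medians of KDM5C-KD1, KDM5C-KD2, DKD1 and DKD2 were -0.25, 0.00, -0.45 and -0.25 over 57 genes. Within 10 Mb on the other side they were 0.04, 0.07, 0.07 and 0.03 over 24 genes. IQSEC2, an exchange factor for ARF proteins that ends 405 bases from KDM5C on the centromeric side, was higher in all 4 lines. It was 9.35, 8.56 and 9.73 FPKM without the guide and 12.5, 12.9, 12.2 and 11.7 with it, a log2 difference of 0.38 (SE 0.09). The next genes, SMC1A, HSD17B10 and HUWE1, overlapped. On the short arm side the nearest tested genes, TSPYL2, GPR173 and XAGE1B, overlapped, and MAGED1, at -1.659 Mb (negative towards the end of the short arm), was lower at 88.2, 84.8, 60.5 and 99.4 FPKM against 116.3, 156.3 and 145.9. HDAC6, at -4.546 Mb, was 30.2, 30.3 and 27.3 FPKM without the guide and 20.0, 18.8, 15.8 and 18.2 with it. SAT1 lies on this side too. In KDM5C-KD2 the log2 differences of SAT1, HDAC6 and MAGED1 from the mean of the 3 lines without the guide were -1.42, -0.61 and -0.70. The rule of no overlap, by which they were called lower, requires low values in all 4 lines. Their values in KDM5C-KD2 therefore do not set them apart from their side. The number of copies of the X chromosome in each line was not measured by RNA-Seq, and its part in these values was not tested.

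**Figure D5:**
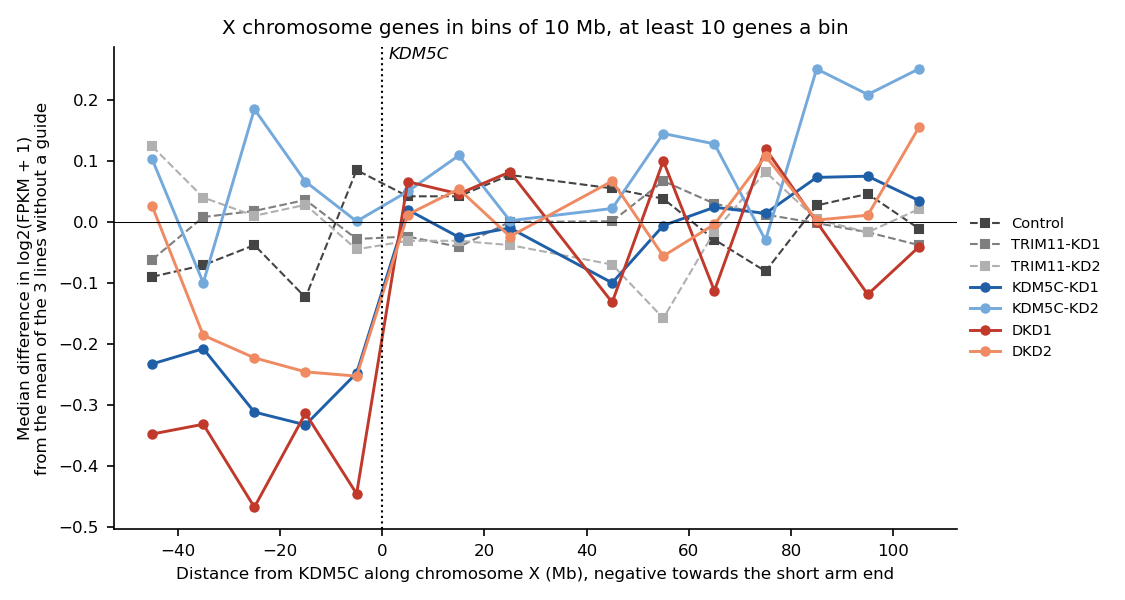
Median difference in log2(FPKM + 1) from the mean of the 3 lines without a KDM5C guide (y axis) for X chromosome genes in bins of 10 Mb by distance from KDM5C (x axis, negative towards the end of the short arm, bins of at least 10 genes). Solid lines with circles are the 4 lines with the guide and dashed lines with squares the 3 lines without. KDM5C-KD1, DKD1 and DKD2 are at -0.25, -0.45 and -0.25 in the bin next to KDM5C on the left and near 0 in the first bin on the right.

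On chromosome 6, 53 of the 70 lower genes lay between 20 and 50 Mb. Of 238 tested genes there 53 (22.3%) were lower and 2 higher without overlap, and the median log2 difference was -0.24. The medians in single lines were -0.13 in KDM5C-KD1, -0.15 in KDM5C-KD2, -0.32 in DKD1 and -0.21 in DKD2, against 0.14 in Control and -0.04 and -0.10 in the TRIM11-KD lines, so the groups did not overlap but TRIM11-KD2 came near the highest line with the guide. From 0 to 20 Mb 8 of 71 genes (11.3%) were lower, with a median of -0.09, and from 50 Mb to the end 9 of 256 (3.52%) were lower, with a median of -0.02. Beyond 50 Mb, the window from 70 to 80 Mb had 3 of 19 genes (15.8%) lower, with all 4 medians below the 3 others. Of 250 windows of 10 Mb with at least 15 tested genes, the window from 40 to 50 Mb had the lowest median of all, -0.34, with 18 of its 63 genes lower without overlap and none higher. KLC4, MRPL2 and UBR2 lie in it. HLA-E, TAP1, CFB, HIST1H1C and HIST1H2BJ lie between 20 and 40 Mb. In all, the 4 medians were below the 3 others in 6 windows and above them in 11. Single lines also shifted in other windows without following the guide. On chromosome 10 from 0 to 10 Mb the median was -0.77 in KDM5C-KD2 and 0.18 in DKD1. On chromosome 8 from 20 to 30 Mb it was -0.43 in TRIM11-KD2 and -0.59 in DKD2. Without the genes of these stretches of chromosomes X and 6, 680 genes were higher and 534 lower without overlap.

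Whether the KDM5C guide acted differently with a TRIM11 guide was tested as an interaction. Of 11775 genes 2 had a limma adjusted p under 0.05 (0.017%), and 660 had an unadjusted p under 0.05 (5.61%). The 2 were the small nucleolar RNAs SNORA61 and SNORA8, which were listed at 72.0 and 55.4 FPKM in Control and at 0 in the 6 other lines, so that both rest on the Control library, and neither passed at a pseudocount of 0.1 or 0.5 (0 genes). SNORA4 and L3HYPDH had the next smallest p. L3HYPDH, a dehydratase of hydroxyproline, was highest in the KDM5C-KD lines, at 41.2 and 47.4 FPKM, against 20.3 in Control. The TRIM11-KD lines were at 31.2 and 25.6 FPKM, and the DKD lines were lowest, at 17.1 and 17.0. Its interaction was -1.78 on the log2 scale, at a limma adjusted p of 0.473.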

How the data were processed

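Polyadenylated RNA of the 7 lines went into libraries that keep no strand, read as 150 bp pairs. The authors trimmed the reads, used HISAT2 with hg19 for alignment and Cufflinks for quantification, and deposited 1 FPKM value per gene and line. The submitters' processing notes also name Bowtie 0.12.2 and the builds mm10 and mm8, without a role. The table held 26006 rows, of which 27 had a symbol turned into a date, and 24523 symbols after the row with the highest mean was kept for each.

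log2(FPKM + 1) of the 11775 genes with a mean of at least 1 FPKM was fitted with limma 3.58.1 (R 4.3.3, trended variance), with the KDM5C guide and the TRIM11 guide as terms and Benjamini-Hochberg adjustment over all genes. An interaction was fitted separately. The fit was also run on simulated data of the same 11775 genes, with 100 genes changed by 1 on the log2 scale and 100 by 2. Of these 71% and 95% passed an adjusted p under 0.05, and 13 unchanged genes did. The simulated noise was independent between genes and lines, without deviations that a line shares over many genes. These shares therefore do not give the power of the real comparison. A relative depth was taken from the steps of low FPKM values, since no counts were used here, and no counting interval is given. Positions of 11121 genes (94.4%) came from the GENCODE annotation of hg19. Tables were made with Python 3.11.15, pandas 2.3.3 and numpy 2.4.6, and figures with matplotlib 3.10.9.

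The genes named were KDM5C and TRIM11, the 12 largest and 12 smallest log2 differences among genes without overlap and with a mean of at least 5 FPKM (small RNAs, ribosomal, antisense and clone-named genes passed over), the 6 smallest p, members of gene lists, genes the study names, genes at the limits, and the 4 smallest interaction p. MRPL2 and HDAC6 (promoters), neighbours of KDM5C and members of the epithelial list were named after their values were seen. The members and lists were chosen with earlier results of these data known. Alternatives were other pseudocounts, filters, folds and scalings, no covariate, no trend, single strata, a replicate block and leaving out each line. Some items are not reported here. Leaving out genes of chromosomes X and 6 was added after seeing the data.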

Additional observations from a re-analysis of the deposited data

Results flagged for a closer look

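Of 130 genes looked at, 6 had 1 of the 4 lines with a KDM5C guide far from the other 3 by Dixon's test, which chance gives for about 1 in 20 groups. DKD2 was the line apart in COL8A1, a collagen, at 326 FPKM against 190.1 to 207.5, and in TUBB3, a tubulin, at 61.8 against 46.5 to 47.5. It was also apart in MT1A, a metallothionein, at 2.07 against 25.8 to 37.04, and in SOD2, at 98.5 against 112.5 to 113.4. KDM5C-KD1 was the lowest line in EPCAM, at 10.3 FPKM against 12.02 to 12.3. DKD1 was the highest in TMEM104, at 10.4 against 9.20 to 9.33.

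The interaction of the KDM5C and TRIM11 guides passed the test in SNORA61 (6.19 on the log2 scale, SE 0.30) and SNORA8 (5.82, SE 0.31), each at a limma adjusted p of 0.00705. Both were listed above 0 in 1 library, Control, and at 0 in the 6 others, so that the values show no more than that this library differed. At pseudocounts of 0.1 and 0.5, 0 genes passed.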

How the results depend on the processing

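Of 1297 values of the 57 named genes without overlap under 23 alternatives, 45 moved by more than the spread between lines. Their sign was fixed by the rule that chose them and is no sign of stability. Counts of genes without overlap depend on how many lines have to separate. With the replicate number as a block, in a fit of the 6 knockdown lines that drops Control, they were 1157 higher and 1038 lower. The number marks a shared TRIM11 guide in the TRIM11-KD and DKD lines, whose deviations correlated at 0.37, but not in the KDM5C-KD lines, which correlated at 0.09 with the TRIM11-KD lines and at 0.27 with the DKD lines. With the TRIM11 guide number as covariate, 902 genes were higher and 742 lower at an unadjusted limma p under 0.05, and 0 passed by adjusted p. Only in lines with a TRIM11 guide the counts were 2613 and 2281 (365 and 327 with the fold). Only in lines without one they were 4079 and 4349 (871 and 723 with the fold), with 442 and 403 genes at an unadjusted limma p under 0.05, 386 and 328 of these with the fold, and 2 at an adjusted p under 0.05. At a mean of at least 5 FPKM the fold counts were 60 and 43, and 81 and 76 with p. With no filter they were 273 and 266, and 346 and 430. At a fold of 2 they were 55 and 15, and 71 and 44. By adjusted p, 1 gene passed with no filter, at a mean of at least 0.5, without the trend and without the covariate, and 2 passed in the average of the interaction model. No interaction (0 genes) passed at pseudocounts of 0.1 and 0.5 or at a mean of at least 5.

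Leaving out 1 line at a time gave 851 to 1504 higher and 790 to 1411 lower genes without overlap, 176 to 401 and 99 to 316 with the fold, 398 to 775 and 308 to 634 by unadjusted p, 119 to 362 and 91 to 285 by p with the fold, and 0 to 1 by adjusted p. The median of the interferon list lay between -0.22 and 0.03, of the histones between -0.56 and -0.26, and of the X chromosome towards the end of the short arm between -0.29 and -0.14. The median of the histones was -0.51 at a pseudocount of 0.1, -0.66 at a mean of at least 5 FPKM, and -0.56 with the block and in the lines with a TRIM11 guide. That of the KDM5 family was -0.35 at a mean of at least 5. Only in lines without a TRIM11 guide, medians were -0.32 for antigen presentation, 0.30 for the epithelial list, 1.72 for germline genes, 1.15 for metallothioneins, -0.09 for migration and -0.09 for the X chromosome. The causes were not tested. Read depth is unknown, which limits the values of low genes, above all in KDM5C-KD2.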
